A study of Mus musculus with 30 samples.

Results

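The genes described here encode antibodies. They are the immunoglobulin variable (V) segments and constant regions measured in RNA of mouse pancreatic islets, with Jchain and Mzb1, genes of antibody-secreting plasma cells. They were taken by symbol (Ighv, Igkv, Iglv, Ighg, Igha, Ighm, Ighd, Igkc, Iglc, Jchain and Mzb1) and kept if they held at least 50 counts summed over the 20 in vivo libraries. Of 54232 gene IDs in the files, 362 matched the symbols, 118 of these had 0 counts in vivo and 111 had 1 to 49, which left 133 genes. These were 59 of 185 annotated heavy-chain V segments (Ighv), 58 of 160 kappa V segments (Igkv), all 3 lambda V segments (Iglv), 11 constant region genes, Jchain and Mzb1. Just inside the threshold stood Ighv1-59 with 51 counts, Igkv12-98 with 53 and Ighv3-8 with 58. Just outside it stood Ighv9-1 with 49, Ighv1-58 with 48 and Igkv4-74 with 47. The rule uses abundance summed in vivo, and it was set with earlier results of these data known. Ighmbp2, a helicase gene that shares the first letters of Ighm, was kept out.

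The series sequenced islet RNA of male wild-type C57BL/6N mice, in groups of 4 to 6 libraries. Mice received 1 mM cadmium chloride (CdCl2) for 6 weeks (4 libraries, against 5 Vehicle libraries) or for 18 weeks (5 libraries, against 6 Vehicle libraries). Isolated islets were also kept in culture for 96 hours with 0.5 uM CdCl2 or with Vehicle (5 libraries each). All mice were of 1 strain and sex, with no transgene named. No source used here states the route of dosing or the ages. None states that the libraries of a group came from separate animals or cultures either, and p-values then measure only library-to-library spread, part of which may be technical. Total counts ranged from 9092759 to 58366797 per library. At 18 weeks, CdCl2 library 5 and Vehicle libraries 4 and 6 held the fewest, with 21573301, 14751249 and 9092759. The endocrine marker list (insulin, glucagon and other islet genes) summed to between 141072 and 296038 CPM (counts scaled to a common library size) in every library, so the markers of the labelled tissue were present.

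A B cell makes an antibody gene by joining 1 V segment to short D and J segments in its own DNA, so a bulk library sums the segments used by all its B cells and plasma cells. The constant region sets the antibody class: Ighm gives IgM and Ighd IgD, both made by naive B cells, while Ighg and Igha genes give the IgG and IgA that follow class switching. Plasma cells carry far more immunoglobulin mRNA per cell than resting B cells. Jchain joins IgM pentamers and IgA dimers, and Mzb1 is a chaperone of the endoplasmic reticulum that helps assemble IgM. Islets normally hold few lymphocytes. In bulk RNA, fewer cells of a type and less RNA per cell cannot be told apart.

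The V segments that the results turn on are printed from the GENCODE vM21 transcripts (build GRCm38), as up to 300 bases at the 3′ end of the V exon, 5′ to 3′ on the coding strand. Capitals mark the bases that differ from the closest annotated segment. Igkv3-4 led the kappa counts of the highest library, and Ighv7-3 led the heavy-chain counts of 4 libraries at 6 weeks. Ighv11-2 and Igkv14-126 form a pair known from mouse B-1 cells, the innate-like B cells that make natural IgM. Iglv1 and Iglv2 show how alike segments can be.
Igkv3-4 (chr6:70672078-70672377, plus strand): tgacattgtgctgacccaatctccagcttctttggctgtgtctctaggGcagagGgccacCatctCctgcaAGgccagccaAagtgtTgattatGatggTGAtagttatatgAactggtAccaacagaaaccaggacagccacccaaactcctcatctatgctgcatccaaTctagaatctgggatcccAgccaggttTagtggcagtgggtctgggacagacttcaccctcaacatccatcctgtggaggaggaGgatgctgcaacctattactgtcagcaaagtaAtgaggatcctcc
Ighv7-3 (chr12:114153180-114153479, minus strand): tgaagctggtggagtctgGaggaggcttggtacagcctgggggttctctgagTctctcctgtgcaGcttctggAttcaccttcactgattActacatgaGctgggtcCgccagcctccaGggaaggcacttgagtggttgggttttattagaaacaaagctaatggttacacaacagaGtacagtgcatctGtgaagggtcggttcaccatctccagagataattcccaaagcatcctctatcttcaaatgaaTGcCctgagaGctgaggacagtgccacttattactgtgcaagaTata
Ighv11-2 (chr12:114048241-114048540, minus strand): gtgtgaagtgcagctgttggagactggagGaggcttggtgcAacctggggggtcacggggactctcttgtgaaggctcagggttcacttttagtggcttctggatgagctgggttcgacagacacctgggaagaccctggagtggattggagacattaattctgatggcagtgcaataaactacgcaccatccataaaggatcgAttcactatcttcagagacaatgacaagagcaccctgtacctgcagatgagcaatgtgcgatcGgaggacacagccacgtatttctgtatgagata
Igkv14-126 (chr6:67896345-67896642, plus strand): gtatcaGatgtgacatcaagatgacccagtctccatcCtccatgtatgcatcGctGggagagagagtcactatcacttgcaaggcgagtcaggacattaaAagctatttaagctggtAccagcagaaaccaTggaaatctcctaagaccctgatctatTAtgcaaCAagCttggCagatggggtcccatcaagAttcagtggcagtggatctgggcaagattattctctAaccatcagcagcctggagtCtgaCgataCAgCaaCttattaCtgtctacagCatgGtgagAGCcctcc
Iglv1 (chr16:19085017-19085316, minus strand): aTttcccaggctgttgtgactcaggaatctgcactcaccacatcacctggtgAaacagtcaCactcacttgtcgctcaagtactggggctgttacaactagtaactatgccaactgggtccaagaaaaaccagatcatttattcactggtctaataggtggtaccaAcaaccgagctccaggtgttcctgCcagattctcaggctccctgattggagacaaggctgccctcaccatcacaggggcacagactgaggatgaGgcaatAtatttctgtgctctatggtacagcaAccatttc
Iglv2 (chr16:19260401-19260700, minus strand): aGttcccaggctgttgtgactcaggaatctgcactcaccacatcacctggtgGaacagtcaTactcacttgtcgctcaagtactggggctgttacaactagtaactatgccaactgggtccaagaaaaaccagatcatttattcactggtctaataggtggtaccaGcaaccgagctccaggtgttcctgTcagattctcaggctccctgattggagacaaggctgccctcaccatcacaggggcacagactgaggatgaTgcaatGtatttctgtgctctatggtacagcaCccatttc
Iglv1 and Iglv2 differed at 8 of 300 aligned bases, an identity of 97.3%. Ighv11-2 differed from Ighv11-1 at 4 of 300, Ighv7-3 from Ighv7-2 at 15 of 298, Igkv3-4 from Igkv3-3 at 19 of 300 and Igkv14-126 from Igkv14-111 at 27 of 298. How reads that match several places were handled is stated in no source used here, so counts of single segments are uncertain between such relatives, and sums over segments less so. On the same build, the heavy-chain constant gene Ighm lies at chr12:113418558-113422730 (minus strand), Igkc at chr6:70726435-70726966 (plus strand) and Jchain at chr5:88519809-88527891 (minus strand). The octamer ATGCAAAT, a motif known from V segment promoters, was searched on both strands of the RefSeq promoter windows (GRCm38.p6). It was held by 570 of 32851 windows (1.74%) and not by that of Jchain, the 1 gene of the 133 with a window in the table. The uncertainty between relatives also holds for the closely related Iglc2 and Iglc3 and for the Ighg genes.

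Summed over the 133 genes, the level ran from 2.07 to 1321 CPM among in vivo libraries. Levels are CPM of library sizes scaled by the trimmed mean of M values (TMM). At 6 weeks the sums were 75.2, 525, 23.3 and 100.2 CPM in CdCl2 libraries 1 to 4, against 648, 594, 473, 302 and 165 CPM in Vehicle libraries 1 to 5. Thus 3 of the 4 CdCl2 libraries lay below every Vehicle library and CdCl2 library 2 lay among them. At 18 weeks the sums were 3.04, 154, 1321, 91.0 and 4.79 CPM in CdCl2 libraries 1 to 5, against 6.80, 5.55, 2.07, 146, 16.9 and 11.7 CPM in Vehicle libraries 1 to 6. Here CdCl2 libraries 1 and 5 lay at the level of most Vehicle libraries, and Vehicle library 4 lay with CdCl2 library 2. The group means were 181 ± 231 in CdCl2 and 436 ± 202 CPM in Vehicle at 6 weeks (SD, n = 4 and 5), and 315 ± 566 in CdCl2 and 31.5 ± 56.4 CPM in Vehicle at 18 weeks (SD, n = 5 and 6). With single libraries left out, the log2 ratio of the 18-week means (3.32 with all) ran from 1.00 to 5.19. In culture the means were 0.841 ± 0.181 with CdCl2 and 0.996 ± 0.309 CPM with Vehicle (SD, n = 5 each).

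**Figure D1:**
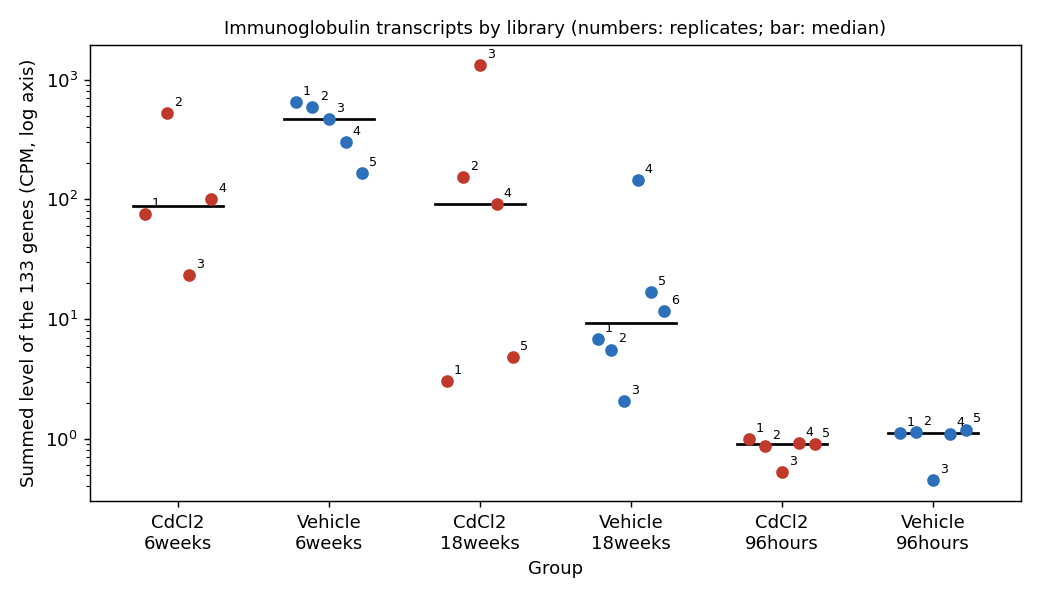
Summed level of the 133 genes (CPM, log axis) in each of the 30 libraries by group, with points numbered by replicate and bars at the group medians. Medians were 87.7 CPM (CdCl2) and 473 CPM (Vehicle) at 6 weeks, 91.0 and 9.26 CPM at 18 weeks, and 0.905 and 1.11 CPM in culture, and CdCl2 library 3 at 18 weeks stood highest at 1321 CPM.

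CdCl2 library 3 stood apart from the other 18-week libraries. It held 54828 of the genes' counts, and for 61 of the 120 V segments it had the highest in vivo count. Vehicle library 4 resembled it in segment use. The shares of V segment counts overlapped by 65.6% (Pearson's r = 0.92 over 120 segments). This was the highest of 91 pairs of the 14 in vivo libraries with at least 100 V counts, whose overlaps had a median of 36.5% and ran from 15.7% to 65.6%. Igkv3-4 was the largest segment in both (93 of 491 V counts in Vehicle library 4, 2852 of 13225 in CdCl2 library 3). How far r rests on this segment was not tested. Vehicle library 5, with 22 of 178 V counts from Igkv3-4, had r = 0.65 with Vehicle library 4 and 0.59 with CdCl2 library 3. The resemblance of Vehicle library 4 to CdCl2 library 3 was not the same for all genes. Vehicle library 4 held 2.76% of the Igkc counts and 3.26% of the Igkv3-4 counts of CdCl2 library 3, but 5.09% of its Ighm and 15.2% of its Igha counts. Among V segments with 100 or more counts in CdCl2 library 3, the ratio ran from 0% to 10.3%. Examples are Igkv4-80 (0 of 131), Igkv8-24 (1 of 251), Igkv8-30 (3 of 445) and Igkv5-39 (15 of 145). Counts cannot tell whether CdCl2 library 3 and Vehicle library 4 share material. That limit holds for the levels of Vehicle library 4 and for the Vehicle mean at 18 weeks. Some summary results at 18 weeks, but not the values of single genes, are therefore also given without these libraries, a setting chosen after the data were seen.

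The question at 6 weeks was whether cadmium exposure changes the islet transcriptome, and no immunoglobulin gene passed the test. Of the 133 genes, 46 had enough counts to be tested, and 0 of these were called at an adjusted p under 0.05 with the quasi-likelihood test of edgeR (Benjamini-Hochberg over 18080 genes, of which 0%, 0 genes, were called lower). With DESeq2, 0 of 116 were called. An unadjusted p under 0.05 with a lower level was reached by 15 of the 46, against 2.48% of all genes tested, and 0 reached it with a higher level, against 2.62%. Genes that passed the filter on low counts only through the group where they were high had to differ, so the counts and medians of tested genes here and in the later comparisons describe these genes and support no direction. The median log2 fold change of the 46 was -1.67, against -0.0019 over all genes. Without CdCl2 library 2, the median was -2.82 and 42 of 55 tested genes had an unadjusted p under 0.05 (edgeR). Yet 0 were called, as were 0 of all 18256 genes. The share of all genes with an unadjusted p under 0.05 was not computed for that fit.

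Among heavy-chain constant genes, Ighm had 25.9, 249, 9.53 and 42.8 CPM in CdCl2 libraries and 253, 234, 221, 139.6 and 69.6 CPM in Vehicle libraries (log2 fold change -1.18 ± 0.77 SE). Its groups overlapped through CdCl2 library 2. Igha, for the antibody class of mucosae, averaged 1.68 ± 1.11 CPM with CdCl2 and 6.78 ± 5.12 CPM with Vehicle (SD, n = 4 and 5), a log2 fold change of -2.02 ± 0.62 with an adjusted p of 0.919 from edgeR. Ighg2b, of an IgG class, gave -2.63 ± 1.00 and Ighd, of naive B cells, -0.03 ± 0.77. The other heavy-chain genes lay between these, with Ighg1 at -2.44, Ighg3 at -1.50 and Ighg2c at -1.24.

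Of the light chains, Igkc (kappa) averaged 42.9 ± 54.4 CPM with CdCl2 and 90.2 ± 51.5 CPM with Vehicle (SD, n = 4 and 5; log2 fold change -1.09 ± 0.75). The lambda constant genes had larger differences, at -2.77 ± 0.82 for Iglc2, -2.22 ± 0.82 for Iglc3 and -2.11 ± 0.87 for Iglc1. Their V segment Iglv2 had 0.0426, 0.940, 0.0185 and 0.275 CPM in CdCl2 libraries and 0.898, 6.06, 8.28, 6.19 and 1.97 CPM in Vehicle libraries, a log2 fold change of -3.88 ± 0.88. Only Vehicle library 1 reached down to the CdCl2 values. Ighv6-6 had the smallest p (-4.55 ± 0.90, adjusted p 0.919 from edgeR), and of the 46 genes tested it was the 1 whose CdCl2 libraries all lay below every Vehicle library, as 0.608% of all genes did. It rested on few reads, at most 0.0409 CPM in CdCl2 and 0.0427 to 0.422 CPM in Vehicle libraries. Jchain gave -1.38 ± 0.65 and Mzb1 -0.70 ± 0.37, and 2 genes had a positive value, Igkv3-2 (0.93 ± 1.37) and Igkv1-110 (0.38 ± 0.95). Igkv3-2 turned to -5.78 ± 1.51 without CdCl2 library 2, which held 6.76 CPM of it, against at most 2.24 CPM in any Vehicle library.

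At 18 weeks the values pointed the other way and none passed the test either. Of the 133 genes, 12 were tested, and edgeR called 0 (DESeq2 called 0 of 91), against 0.359% of 20911 genes called, 0.344% higher and 0.0143% lower. All 12 had a positive log2 fold change, with a median of 3.41 against 0.00029 over all genes, and 11 had an unadjusted p under 0.05, against 10.7% of all genes that were higher at this level and 7.47% that were lower. In 0 of the 12 did every CdCl2 library exceed every Vehicle library, as in 0.937% of all genes. The median depended on single libraries of both groups. Without CdCl2 library 3 it was 1.07, and 2 of 12 had an unadjusted p under 0.05. Without Vehicle library 4 it was 4.62, and 9 of 9 tested genes had an unadjusted p under 0.05. Without both libraries, the median was 2.98 over 9 genes, of which 6 had an unadjusted p under 0.05 and 0 were called. For these fits without libraries, the share of all genes with an unadjusted p under 0.05 was not computed. In 1 fit of all 30 libraries, 29 of 78 tested genes were called higher at 18 weeks, while over all genes that fit called 1601 of 22721 higher and 895 lower, against 72 and 3 in the fit of the 18-week groups alone.

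Iglv1 had the smallest p at 18 weeks. It had 0, 2.25, 10.3, 0.455 and 0.0469 CPM in CdCl2 libraries and 0.0204, 0.0183, 0, 0.841, 0.0785 and 0.366 CPM in Vehicle libraries, with a log2 fold change of 4.47 ± 1.40 (adjusted p 0.155, edgeR). CdCl2 libraries 2 and 3 were above every Vehicle library and the other 3 within their range. Igkc, the kappa constant region, had 0.107, 24.7, 331, 18.2 and 0.610 CPM in CdCl2 libraries and 0.692, 0.493, 0.0241, 26.6, 2.43 and 3.18 CPM in Vehicle libraries (4.02 ± 1.53). Its highest Vehicle library exceeded 4 of the 5 CdCl2 libraries. Ighm gave 3.01 ± 1.24, Jchain 3.47 ± 1.35 and Mzb1 1.32 ± 0.59.

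The IgG genes Ighg2b and Ighg2c and the segment Igkv3-4 turned in sign without CdCl2 library 3, with Vehicle library 4 kept in. Vehicle library 4 held their highest Vehicle levels, 7.43, 8.62 and 6.52 CPM, against Vehicle medians of 0.169, 0.202 and 0 CPM. Ighg2c had 109 CPM in CdCl2 library 3 and 0 to 0.750 CPM in the other CdCl2 libraries, against 0 to 8.62 CPM in Vehicle libraries, and its log2 fold change of 4.32 ± 1.85 became -2.35 ± 1.58 without library 3. Ighg2b had 99.6 CPM there and 4.51 ± 1.73 became -0.46 ± 1.41, and Igkv3-4 had 68.7 CPM there and 4.11 ± 1.81 became -1.80 ± 1.60. Igha (3.34 ± 1.31) and Ighd (3.17 ± 1.21) were instead highest in CdCl2 library 2, at 20.1 and 8.60 CPM. Iglc2 gave 2.46 ± 1.11 and Ighv3-6 2.13 ± 1.09.

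**Figure D2:**
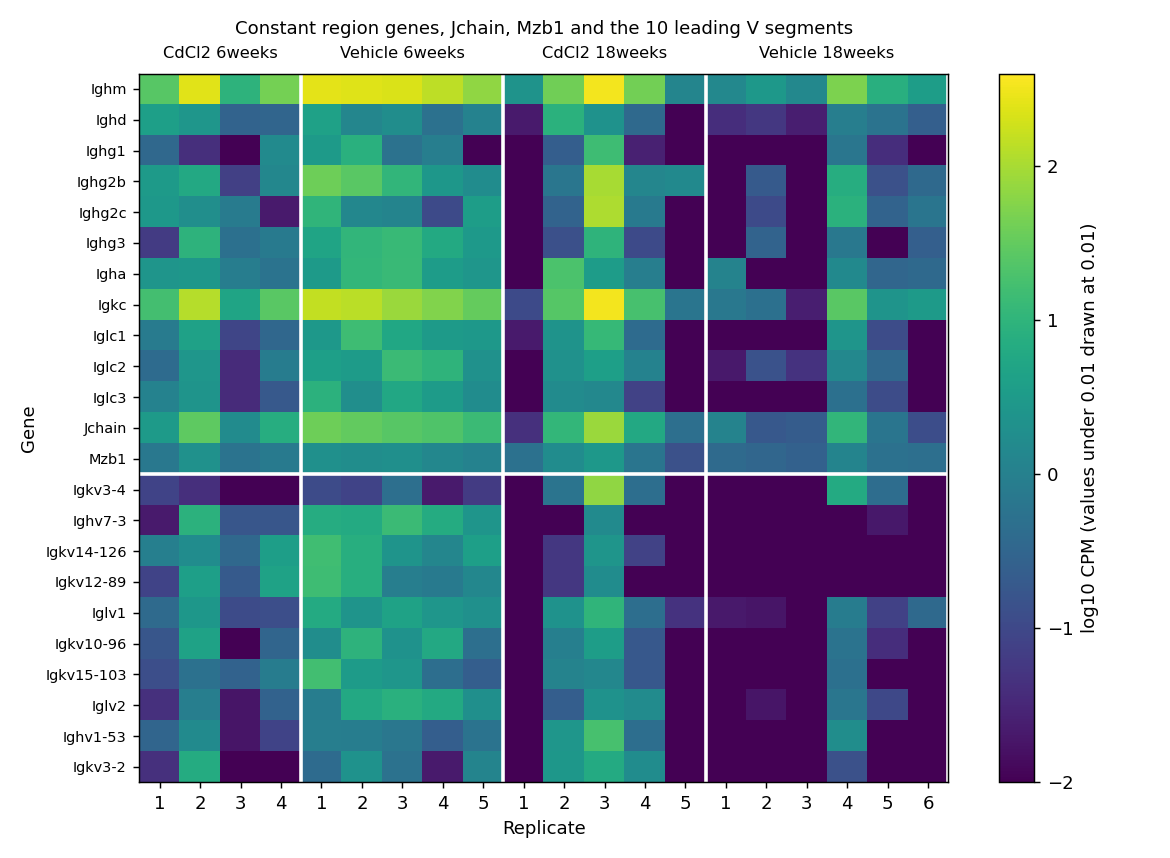
Level (log10 CPM, values under 0.01 drawn at 0.01) of the 11 constant region genes, Jchain, Mzb1 and the 10 V segments of highest mean in the 20 in vivo libraries, grouped by exposure. The 18-week columns of CdCl2 libraries 1 and 5 are dark, while CdCl2 library 3 is bright for Igkv3-4 (68.7 CPM) and Ighg2c (109 CPM), as is Vehicle library 4 to a lesser degree (6.52 and 8.62 CPM).

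The cadmium effect at 18 weeks was also set against that at 6 weeks in 1 fit of the 6 groups. In this contrast 78 of the 133 genes were tested and 9 were called higher, all V segments, against 0.898% of 22721 genes called higher (0.783% lower, 1.68% in either direction). An unadjusted p under 0.05 was reached by 62, against 11.7% of all genes on the higher side. Called segments such as Ighv5-4 passed the filter through Vehicle libraries at 6 weeks and CdCl2 libraries at 18 weeks, the groups that raise this difference, so neither the 9 calls nor the signs can be weighed against the share of all genes. All 78 had a positive difference, with a median of 5.37, or 5.33 when the 5 genes with 0 counts in all Vehicle libraries at 18 weeks were set at the limit of 3 counts over that group. The 9 segments were Ighv5-4, Ighv1-76, Iglv2, Igkv3-12, Igkv17-127, Igkv8-24, Igkv15-103, Igkv12-44 and Igkv19-93, with adjusted p from 0.0326 to 0.0497 (edgeR). Ighv5-4 had 0, 0.130, 2.87, 0.455 and 0 CPM in CdCl2 libraries at 18 weeks, and its difference was 13.39 ± 2.63 on the log2 scale. The size of this difference is uncertain, since the 2 low groups held few reads of Ighv5-4. It had 0, 0, 1 and 2 counts in CdCl2 libraries at 6 weeks. In Vehicle libraries at 18 weeks it had 1 count in library 5 and 0 in the others. Iglv2 had a difference of 7.29 ± 1.61 on the log2 scale and Igkv15-103 of 7.23 ± 1.84. Every one of the 9 had 0 counts in CdCl2 libraries 1 and 5 at 18 weeks and its highest 18-week level in CdCl2 library 3. Of constant genes, Igha came nearest (5.38 ± 1.46, adjusted p 0.0556, edgeR), while Jchain gave 4.99 ± 1.40, Igkc 5.29 ± 1.59 and Ighm 4.29 ± 1.38, none of them called. The count of called genes ranged from 0 to 35 when 1 library was left out, and it was 0 without CdCl2 library 3 or 4 at 18 weeks, Vehicle library 6 at 18 weeks, Vehicle library 1, 2 or 3 at 6 weeks, or CdCl2 library 1 or 3 at 6 weeks. It was 35 without CdCl2 library 5 or Vehicle library 4 at 18 weeks. The count over all genes moved as well: 976 and 632 genes were called higher in these fits, against 204 with all libraries, and at most 12 in each of those with 0.

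**Figure D3:**
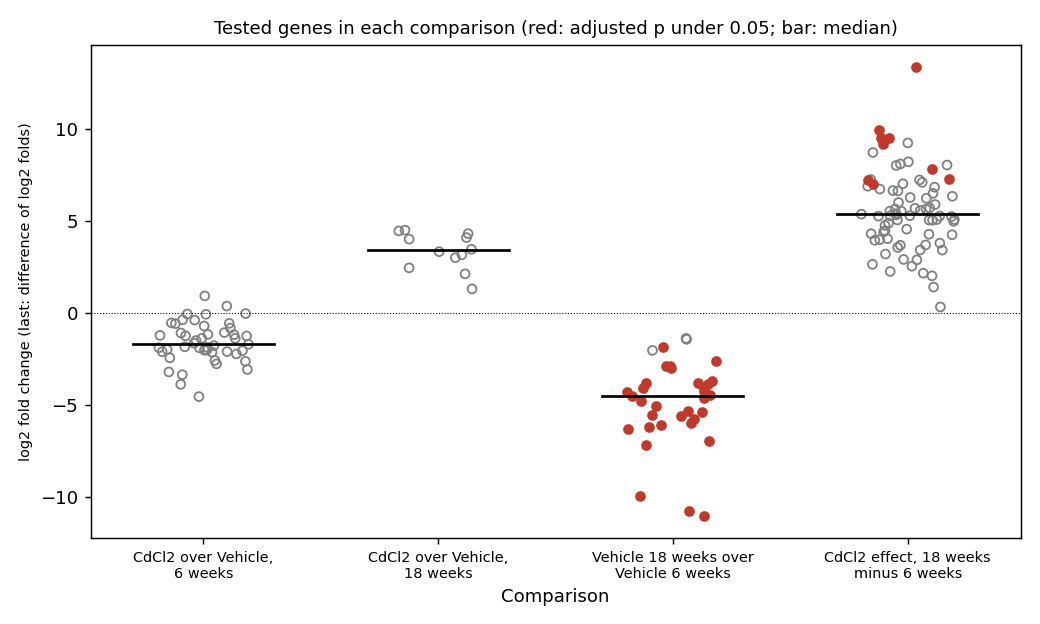
Log2 fold change of each tested gene in 4 comparisons (last column: difference of the log2 folds), with filled red points for adjusted p under 0.05 (edgeR) and bars at the medians. The medians were -1.67 at 6 weeks, 3.41 at 18 weeks, -4.53 for Vehicle at 18 against 6 weeks and 5.37 for the difference of the cadmium effects.

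Without cadmium, the summed level of the genes was 2.07 to 146 CPM in Vehicle libraries at 18 weeks and 165 to 648 CPM at 6 weeks. Of the 35 genes tested, 32 fell and 0 rose (edgeR), where 35.9% of all 20551 genes were called lower and 71.8% in either direction. The median was -4.53 against 0.00027 over all genes. Genes such as Igkv14-126, with 0 counts in Vehicle at 18 weeks, passed the filter through the 6-week group alone. The counts and the median of tested genes therefore support no direction. Exposure time cannot be told apart here from age or from anything else that differed between the sets of mice. In 17 of the 35, every 18-week library lay below every 6-week library, as 25.1% of all genes did.

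Ighm had 1.41, 2.81, 1.40, 49.3, 7.85 and 3.66 CPM in Vehicle libraries at 18 weeks and 253, 234, 221, 139.6 and 69.6 CPM at 6 weeks, with no overlap (log2 fold change -4.24 ± 0.80, adjusted p 0.000223, edgeR). Among the other constant genes, Ighg3 fell by 5.80 ± 0.69 and Iglc3 by 6.10 ± 0.77 on the log2 scale, Igkc by 4.47 ± 0.91 and Igha by 3.86 ± 0.76. Ighg1 fell by 5.54 ± 1.30, Iglc1 by 4.61 ± 1.00, Ighg2b by 4.29 ± 1.16 and Ighd by 2.89 ± 0.73. Jchain fell by 4.10 ± 0.76 and Mzb1 by 1.84 ± 0.32. The smallest p belonged to Ighv7-3, the segment printed above, with 1 count in Vehicle library 5 and 0 in the other 5 at 18 weeks, against 2.54 to 13.7 CPM at 6 weeks (-9.95 ± 0.65, adjusted p 4.78e-09, edgeR). Ighv11-2 fell by 7.19 ± 0.86. Igkv14-126 and Igkv12-89 had 0 counts in all 6 Vehicle libraries at 18 weeks. Set at 3 counts over the group, they lay 450-fold and 369-fold below their means at 6 weeks. The 6-week libraries spread from 1.27 to 15.7 CPM and from 0.795 to 14.6 CPM, which these folds do not cover. Igkv1-117 fell by 5.62 ± 0.78, Igkv8-30 by 4.53 ± 0.69, Iglv2 by 5.98 ± 0.82, Iglv1 by 5.05 ± 0.70, Iglc2 by 4.77 ± 0.73 and Igkv10-96 by 6.29 ± 0.99. Ighg2c (-1.43 ± 1.22), Ighv1-53 (-2.03 ± 1.10) and Ighv3-6 (-1.38 ± 0.66) were not called. In Vehicle library 4, Ighg2c and Ighv1-53 stood at 8.62 and 1.82 CPM. All 29 genes tested without that library were called lower, as were 7279 of all 20043 genes in that fit. Genes could pass its filter through the 6-week group alone, so this count supports no direction.

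Cultured islets held almost no immunoglobulin RNA. The genes together had 29, 24, 15, 26 and 28 counts in CdCl2 libraries and 31, 32, 13, 30 and 34 counts in Vehicle libraries, and Ighm, Jchain and Mzb1 made up most of these. Of the 120 V segments, 116 had 0 counts in all 10 libraries, which allows up to 0.0105 CPM each. Of the 4 others, Ighv6-3 had 1 count in a CdCl2 library and 5 in Vehicle libraries, and Ighv11-2, Ighv1-9 and Iglv3 had 1 count each. Mzb1 alone was tested, with 0.444, 0.323, 0.246, 0.142 and 0.291 CPM with CdCl2 and 0.431, 0.528, 0.0688, 0.367 and 0.386 CPM with Vehicle. The groups overlapped, and the log2 fold change was -0.29 ± 0.40 (adjusted p 0.945, edgeR; 0.00597% of 16743 genes, 1 gene, called higher). DESeq2 called 0 of 11. Counts this low cannot show a difference smaller than their own counting error.

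The classes of heavy chain differed widely between libraries of a group. IgM was the main class at 6 weeks, at 66.6% to 91.7% of heavy-chain constant counts in CdCl2 libraries and 79.8% to 90.9% in Vehicle libraries. In CdCl2 library 1 at 6 weeks IgD took 10.2% (95% interval 8.85 to 11.7, Clopper-Pearson). It took 0.962%, 2.45% and 0.669% in CdCl2 libraries 2 to 4 and 0.336% to 1.36% in the 5 Vehicle libraries. At 18 weeks each rich library had a class profile of its own. CdCl2 library 3 had 40.8% IgG (40.2 to 41.4) of 23721 counts, and CdCl2 library 2 had 28.9% IgA (27.4 to 30.3), 12.4% IgD and 1.90% IgG of 3746 counts. CdCl2 library 4 had 92.1% IgM. Vehicle library 4 had 25.2% IgG (22.5 to 28.0) of 986 counts, while Vehicle library 1 had 43.7% IgA (34.8 to 52.8) of only 126 counts. Intervals cover counting error only. Lambda made up 3.26% to 12.2% of light-chain constant counts in CdCl2 libraries at 6 weeks and 9.46% to 24.1% in Vehicle libraries, and these ranges overlap.

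**Figure D4:**
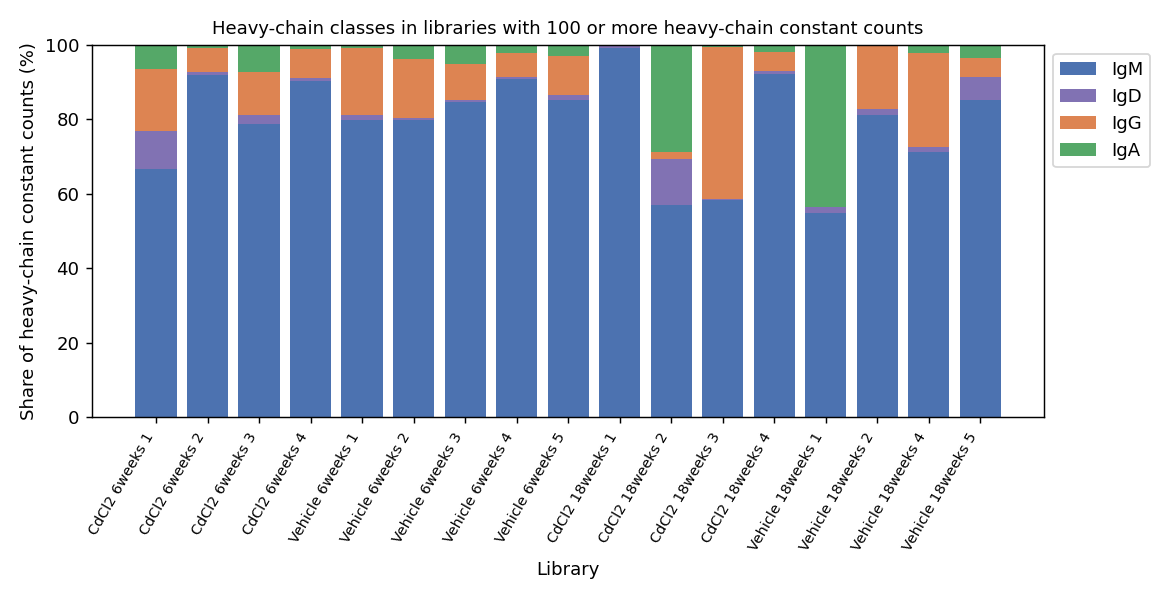
Shares (%) of IgM, IgD, IgG and IgA among heavy-chain constant counts in the 17 in vivo libraries with at least 100 such counts. IgM is the largest class in each library, with 40.8% IgG in CdCl2 library 3 and 28.9% IgA in CdCl2 library 2 at 18 weeks.

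V segment use varied from library to library as well. At 6 weeks, counts fell on 45 to 105 of the 120 segments in CdCl2 libraries and on 91 to 109 in Vehicle libraries. Ighv7-3 held 25.9% of the Ighv counts in CdCl2 library 2 (445 of 1717), but 1 of 200 counts in CdCl2 library 1 and 4.44% in library 4. In Vehicle libraries it held 18.0%, 15.6%, 37.8%, 30.7% and 25.8%, and it led in 3 of these 5. Igkv12-89 took 35.7% of the Igkv counts in CdCl2 library 4 (212 of 594). It took 0.993%, 7.71% and 9.32% in CdCl2 libraries 1 to 3 and 3.15% to 19.1% in Vehicle libraries. At 18 weeks Ighv7-3 had 66 counts in CdCl2 library 3 and 0 in the other CdCl2 libraries. Igkv3-4, printed above, held 36.9% of the Igkv counts in CdCl2 library 3 (2852 of 7726), 33.0% in Vehicle library 4 (93 of 282) and 22 of 90 in Vehicle library 5, but at most 1.59% in any 6-week library. Ighv1-53 led the Ighv counts in CdCl2 libraries 2 and 3 and in Vehicle library 4, at 17.1%, 15.3% and 14.3%. Of the 120 segments, 50 had over 50% of their in vivo counts in 1 library.

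Segments known from mouse B-1 cells were looked at after their values were seen. Ighv11-2 pairs with Igkv14-126 and Ighv12-3 with Igkv4-91 in antibodies to phosphatidylcholine, and Ighv7-1 with Igkv7-33 in the T15 antibodies to phosphorylcholine. Ighv11-2 had 9, 31, 1 and 38 counts in CdCl2 libraries at 6 weeks and 211, 108, 29, 29 and 59 in Vehicle libraries. Igkv14-126 had 45, 86, 19 and 179 counts with CdCl2 and 837, 359, 123, 59 and 183 with Vehicle, and both segments had their highest count in Vehicle library 1. At 18 weeks Ighv11-2 had 0, 3, 42, 0 and 0 counts in CdCl2 libraries and 0, 0, 0, 0, 1 and 1 in Vehicle libraries. Ighv12-3 and Igkv4-91 were high together in CdCl2 library 4 at 18 weeks, with 55 of 229 Ighv counts and 63 of 439 Igkv counts. Ighv7-1 led the Ighv counts of Vehicle library 1 at 6 weeks (459 of 2063), where Igkv7-33 had 0 counts.

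B cell markers were also present in vivo, and libraries were not in the same order for these as for immunoglobulin genes. Ms4a1 (CD20), a surface protein of B cells that plasma cells lack, had 0.0858, 15.7, 8.65, 0.829 and 0.375 CPM in CdCl2 libraries at 18 weeks and 0.0407, 0.0913, 0.0241, 3.22, 1.84 and 0.977 CPM in Vehicle libraries. CdCl2 library 2 thus had more Ms4a1 than library 3, with 154 against 1321 CPM of immunoglobulin genes. At 6 weeks Ms4a1 had 3.05, 5.33, 0.167 and 1.18 CPM with CdCl2 and 7.78, 2.66, 2.16, 1.12 and 1.77 CPM with Vehicle. In CdCl2 library 1 immunoglobulin genes summed to 75.2 CPM beside 3.05 CPM of Ms4a1, and in Vehicle library 2 to 594 CPM beside 2.66 CPM. In culture Ms4a1 had 0 counts in all 10 libraries.

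**Figure D5:**
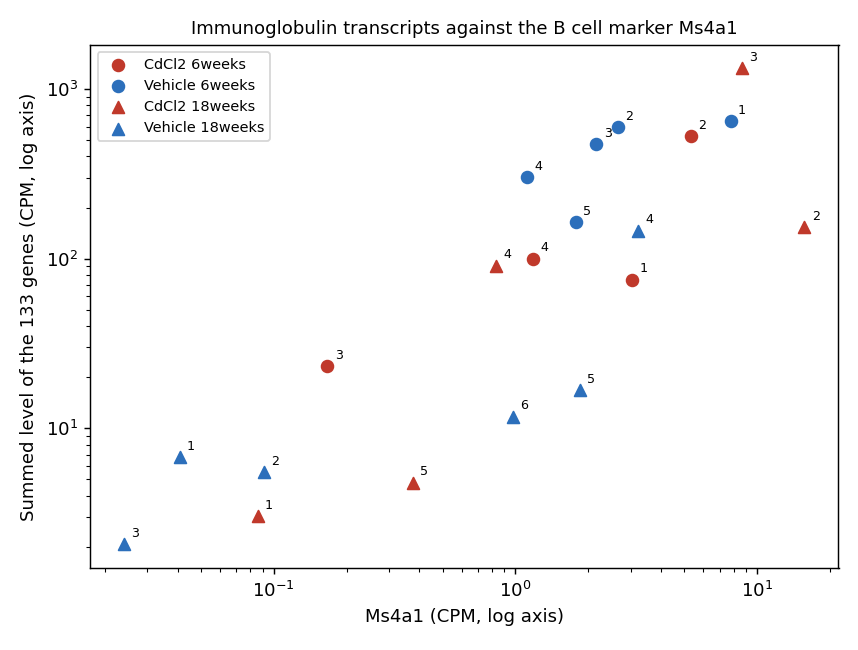
Summed level of the 133 genes against Ms4a1 (both CPM, log axes) in the 20 in vivo libraries, with colour for exposure and shape for time. CdCl2 library 2 at 18 weeks lies farthest right at 15.7 CPM of Ms4a1 but below CdCl2 library 3, which lies at 8.65 and 1321 CPM.

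Of 19 B cell markers, 0 were called at 6 weeks (17 negative, median -0.30), 0 of 16 tested at 18 weeks (16 positive, median 1.92), and 13 of 19 fell in Vehicle at 18 against 6 weeks, where 35.9% of all genes did. Summed, they reached 13.6, 120.2, 61.9, 20.7 and 13.2 CPM in CdCl2 libraries at 18 weeks and 12.1 to 28.0 CPM in Vehicle libraries. Cd37, a tetraspanin of lymphocytes, fell by 3.25 ± 0.59, and Cd79a, part of the B cell receptor, by 0.83 ± 0.17. In culture 0 of 7 tested were called. The list still summed to 12.2 to 15.4 CPM with CdCl2 and 10.6 to 12.8 CPM with Vehicle there, where Ms4a1 had 0 counts, so the low sums at 18 weeks lie at a level also seen without Ms4a1. Of 16 plasma cell genes outside the 133, 0 of 15 tested were called at 6 or at 18 weeks. Sdc1 (CD138) had a log2 fold change of 1.27 ± 0.34 at 18 weeks and Pou2af1, a coactivator of B cells, 2.68 ± 0.95, with adjusted p of 0.12 and 0.182 (edgeR). In Vehicle at 18 against 6 weeks 9 of 15 fell and 3 rose, among them Edem1 (-0.47 ± 0.07) and Glcci1 (0.65 ± 0.15). Several of these, such as Xbp1 and Edem1, serve secretion in islet cells as well. Tnfrsf17 (BCMA), a survival receptor of plasma cells, had 0 to 0.150 CPM in every library.

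Markers of other cell types also differed between libraries, and acinar genes ranked the libraries differently from immunoglobulin genes. At 18 weeks 18 of 20 acinar genes rose with CdCl2 (median 3.43), such as Try5 (4.51 ± 0.62) and Ctrb1 (3.77 ± 0.61), digestive enzymes of the exocrine pancreas. These calls rested on several libraries, since 0 of all genes were called without CdCl2 library 3 or without Vehicle library 1, 3, 4, 5 or 6. The acinar list summed to 36243, 14744, 100811, 244735 and 61922 CPM in CdCl2 libraries and to 2531 to 15982 CPM in Vehicle libraries. CdCl2 libraries 1 and 5, high in acinar genes, were low in immunoglobulin genes. CdCl2 library 2, rich in immunoglobulin transcripts, lay within the acinar range of the Vehicle libraries, and Vehicle library 4 had the lowest acinar sum. T cell genes summed to 3.02, 13.9, 22.1, 7.17 and 4.37 CPM with CdCl2 and 2.84 to 9.74 CPM with Vehicle at 18 weeks, with 0 of 7 called. They were highest in CdCl2 library 3, which was also highest in immunoglobulin genes, and their part in the results was not tested. At 6 weeks acinar genes summed to 37089 to 84704 CPM with CdCl2 and 27344 to 50970 CPM with Vehicle (0 of 20 called), and macrophage genes to 206 to 420 CPM and 247 to 540 CPM (0 of 15 called). In Vehicle at 18 against 6 weeks all 20 acinar and all 15 macrophage genes fell, against 35.9% of all genes. Among the other lists 4 of 9 T cell genes fell, a share near that of all genes, and 10 of 13 lymphatic and endothelial genes and 8 of 12 islet endocrine genes fell. The cadmium effect was higher at 18 than at 6 weeks for 4 of 15 macrophage and 12 of 20 acinar genes, against 0.898% of all genes.

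Genes that act around antibodies were examined in 5 lists, whose counts in Vehicle at 18 against 6 weeks stand beside 35.9% of all genes called lower and 35.9% called higher. Receptors that bind or carry antibody fell in Vehicle at 18 against 6 weeks in 8 of 9 genes tested, with Fcgr2b, the inhibitory IgG receptor, at -2.22 ± 0.33 and Fcgrt, which protects IgG from breakdown, at -1.58 ± 0.24. The cadmium effect on both was higher at 18 than at 6 weeks, by 1.43 ± 0.31 for Fcgrt and 1.69 ± 0.45 for Fcgr2b (adjusted p 0.0326 and 0.0497, edgeR). In that contrast 0 of all genes were called without Vehicle library 2 or 3 or CdCl2 library 3 at 6 weeks, or CdCl2 library 4 at 18 weeks. Chemokines and survival factors of lymphoid tissue fell in 8 and rose in 2 of 13, and Cxcl13, which draws B cells into follicles, had 0.350 to 1.22 CPM in Vehicle libraries at 18 weeks and 2.77 to 33.4 CPM at 6 weeks (-4.57 ± 0.64). Of 16 B cell receptor signalling genes 11 fell, among them Pik3cd (-1.13 ± 0.16) and the kinase genes Syk (-1.52 ± 0.24) and Btk (-1.98 ± 0.33). Of 20 antibody folding and secretion genes, most of them used by any secretory cell, 9 rose and 3 fell, such as Sec61b (1.59 ± 0.08) and Ergic1 (-0.70 ± 0.07). Of 14 rearrangement and switching genes 6 were tested, of which Prkdc rose (0.41 ± 0.07) and Dclre1c and Nhej1 fell. Rag1 had 0 to 0.120 CPM in every in vivo library. In the 6-week, 18-week and culture comparisons, 0 genes of these 5 lists were called.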

How the data were processed

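Islet RNA of 30 libraries was analysed from gene counts as the authors deposited them: raw counts of reads per Ensembl gene, not normalized. Per the submitters' processing notes, cutadapt 1.13, STAR, HTSeq 0.6.1p1, DESeq2 and build mm10 were used. The annotation release, strand setting and handling of multiply mapped reads are stated in no source used here. Of 54232 IDs, 54079 matched GENCODE vM21 and 153 did not. All per-sample columns were used. Libraries held 9092759 to 58366797 counts, and no pair within a group agreed within sampling noise (lowest chi-square per degree of freedom 2.77 over 61 pairs).

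The genes and lists were chosen with earlier results of these data known. Tests used edgeR 4.0.16 (R 4.3.3, limma 3.58.1) with filterByExpr (minimum count 10, minimum total 15), TMM scaling and the quasi-likelihood test, adjusted by Benjamini-Hochberg over all genes tested, with calls at an adjusted p under 0.05. The standard error is the absolute log2 fold change divided by the square root of F. Each comparison was fitted on its own groups, and the difference of cadmium effects in 1 fit of 6 groups. Fits were tested on simulated data. Levels are CPM of TMM-scaled sizes over the 30 libraries. Shares have Clopper-Pearson 95% intervals and need 100 or more counts, and a count of 0 allows 3 counts. Named with values were all constant genes, Jchain, Mzb1, the 10 V segments of highest mean, up to 10 called genes a direction by p, and the 3 of smallest p. In other lists, up to 4 called genes a direction were eligible, or the 2 of smallest p. The B-1 segments, the pair of libraries alike in V segments, Tnfrsf17, Rag1, Ms4a1 and Ighv3-6 were picked after their values were seen.

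Alternatives were DESeq2 1.42.0, DESeq2 size factors, no filter, 1 fit of 30 libraries, a replicate block, and leaving out single libraries, the 3 shallow 18-week libraries or, added after seeing the data, the 2 alike in V segments. Correlations of same-numbered libraries ran from -0.10 to 0.16 at 6 weeks and from -0.065 to 0.32 at 18 weeks, where numbers 1 and 5 correlated best with their own number, so not every pair passed 0.1. In culture the correlations were 0.17, 0.28, 0.28, 0.094 and 0.12, of which 1 missed the limit of 0.1, so the numbers were not taken as pairs. Sequences were read from the GENCODE vM21 transcripts.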

Additional observations from a re-analysis of the deposited data

Results flagged for a closer look

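Among 93 groups of libraries examined for a single library far from the others (Dixon's criterion, on CPM without logs), 43 had one. Chance meets this criterion in about 1 group in 20 only where values are spread normally. CPM within these groups were skewed, so the 43 cannot be weighed against that rate. The genes share libraries, so the 93 groups are not independent. CdCl2 library 3 at 18 weeks accounted for 16, Vehicle library 4 at 18 weeks for 11 and CdCl2 library 2 at 6 weeks for 8.

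CdCl2 library 3 at 18 weeks stood above its group with 1321 CPM summed over the 133 genes. It stood apart for Ighm at 333 CPM, Igkc at 331, Jchain at 79.4, Ighg2b at 99.6, Ighg2c at 109, Ighg3 at 9.76, Iglc1 at 12.2 and Ighg1 at 14.8 CPM. Its outlying V segments were Igkv3-4 at 68.7 CPM, Ighv7-3 at 1.59, Igkv14-126 at 2.53, Iglv1 at 10.3, Igkv12-89 at 1.71, Igkv10-96 at 3.64 and Ighv1-53 at 18.2 CPM. Vehicle library 4 at 18 weeks stood above its group with 146 CPM summed, Ighm at 49.3, Igkc at 26.6, Jchain at 10.4, Ighg2b at 7.43, Ighg2c at 8.62, Iglc1 at 2.52, Iglc2 at 1.40, Mzb1 at 1.19, Igkv3-4 at 6.52 and Ighv1-53 at 1.82 CPM. CdCl2 library 2 at 6 weeks stood above its group with 525 CPM summed, Ighm at 249, Ighg3 at 9.32, Mzb1 at 2.08, Ighv7-3 at 9.09, Iglv1 at 2.72, Igkv10-96 at 4.43 and Igkv3-2 at 6.76 CPM.

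CdCl2 library 2 at 18 weeks was high for Igha at 20.1 CPM and Ighd at 8.60 CPM. At 6 weeks, Vehicle library 2 was high for Iglc1 at 14.9 CPM, Vehicle library 3 for Igkv3-4 at 0.472 CPM and Vehicle library 1 for Igkv15-103 at 16.0 CPM. In culture, library 3 was low with CdCl2 and with Vehicle, at 0.527 and 0.447 CPM summed, and Vehicle library 5 was high for Jchain at 0.386 CPM.

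The test of the difference (edgeR) called the cadmium effect higher at 18 than at 6 weeks for 9 segments. On the log2 scale the difference was 13.39 for Ighv5-4, 7.29 for Iglv2, 9.98 for Ighv1-76, 9.52 for Igkv3-12 and 9.55 for Igkv17-127. It was 9.21 for Igkv8-24, 7.23 for Igkv15-103, 7.85 for Igkv12-44 and 7.04 for Igkv19-93. Called segments such as Ighv5-4 passed the filter through the groups that raise this difference, so the calls support no direction. DESeq2 called 3 of the genes, and leaving out single libraries gave 0 to 35. Igkv3-12 had 0 counts in every Vehicle library at 18 weeks. At the limit of 3 counts its difference was 177-fold, a value that does not cover the spread of the other groups.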

How the results depend on the processing

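For single genes, 90 results gave 1732 values under other settings: 1507 kept direction and side of the threshold, 129 kept direction but lost the call, 84 kept direction and gained a call, and 12 turned in direction. Genes called were counted as follows. At 18 weeks 1 gene was called without a filter on low counts and 29 in 1 fit of all 30 libraries, against 0. Over all genes these fits called 134 of 36571 and 1601 of 22721 higher, against 72. For Vehicle at 18 against 6 weeks edgeR called 32 of 35 genes tested lower. DESeq2 called 71 of 122, no filter 100 of 133 and the fit of 30 libraries 56 of 78. Over all genes these 3 fits called 7337 of 36141, 8581 of 36204 and 7575 of 22721 lower, against 7380 of 20551. DESeq2 moved the median of all genes by 0.33 in that comparison and no filter by 0.17. For the difference of cadmium effects DESeq2 called 3 and leaving out the 3 shallow libraries 45, against 9, and single libraries left out gave 0 to 35. Over all genes, DESeq2 called 665 of 38969 higher, the fit without the shallow libraries 1394 of 22464, and single libraries left out gave 0 to 976, against 204. With a replicate block the calls were 0, 0, 0, 32 of 35 and 10 of 78 in the 5 comparisons. Over all genes the block called 6691 of 20028 lower for Vehicle at 18 against 6 weeks. It called 332 of 22721 higher for the difference of cadmium effects. The shared numbers are not taken as pairs. In culture, where each library correlated best with its own number, the block called 211 genes higher and 12 lower, none of them of these genes. The block turned Igkv1-110 to -0.65 and Igkv3-2 to -0.66 at 6 weeks. The log2 ratio of mean summed levels ran from -2.72 to -0.90 at 6 weeks (-1.27 with all libraries), from 1.00 to 5.19 at 18 weeks (3.32) and from -5.66 to -3.54 for Vehicle at 18 against 6 weeks (-3.79), and was -5.66 there without the pair alike in V segments. With single libraries left out, values at 6 weeks ran from -0.77 to 0.59 for Ighd, -2.25 to 0.026 for Ighv1-53, -0.94 to 1.00 for Igkv1-110 and -5.78 to 1.62 for Igkv3-2. At 18 weeks they ran from -0.46 to 7.62 for Ighg2b, -2.35 to 7.39 for Ighg2c and -1.80 to 4.47 for Igkv3-4, and for the difference from -1.01 to 8.60 for Ighg2c. The cause was not tested. Low counts limit single V segments in the 18-week Vehicle libraries, also in the deep ones, and all of these genes in culture.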
